A study of Mus musculus with 18 samples.

Results

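The miR-148/miR-152 family is a group of small regulatory RNAs from 3 mouse hairpins, miR-148a, miR-148b and miR-152. Its 5 entries described here, mmu-miR-148a-3p, mmu-miR-148a-5p, mmu-miR-148b-3p, mmu-miR-148b-5p and mmu-miR-152-3p, were chosen by name, and each name stood on 1 of the 1184 named entries of the deposited kidney table. The list of names was drawn up with earlier results of these libraries known, so the levels and differences below are a description and support nothing further. The prefix mmu marks mouse and is left out from here on. The remaining arm of these hairpins, miR-152-5p, has an entry in the table but is not on the list, and its values are given beside those of its partner.

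Small RNA from mouse kidney was sequenced in 18 libraries, 6 in each of 3 groups. Control libraries came from C57BL/6J mice that received 0.9% saline. Libraries called DN came from C57BL/KsJ mice with diabetic nephropathy that received the same saline. Treated libraries came from C57BL/KsJ mice with DN that received germacrone, a sesquiterpene found in plants, at a dose of 10 mg/kg/day. The labels give no genotype, age or duration of treatment, and control differs from both other groups in strain. In a comparison with control, the effects of strain and of disease cannot be told apart. Whether each library stands for its own animal is not stated, so p-values measure the spread between these libraries, which may be technical.

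A miRNA is cut from a hairpin as 2 arms, 5p and 3p, and the arm that is kept guides a silencing complex to messenger RNAs that pair with its seed, bases 2 to 8. In this family the 3p arm is the one usually kept. The family is known for targeting the DNA methyltransferase Dnmt1, and miR-148a, which is abundant in liver, also for targeting the LDL receptor and the cholesterol exporter Abca1. miR-148b has been studied in IgA nephropathy, where it was reported to target the glycosyltransferase C1galt1 in leukocytes.

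The 3p sequences are shown because their shared seed, in capitals, is what makes these miRNAs a family. They are RefSeq sequences on mouse build GRCm38.p6, written 5′ to 3′.
miR-148a-3p: uCAGUGCAcuacagaacuuugu
miR-148b-3p: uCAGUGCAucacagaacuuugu
miR-152-3p: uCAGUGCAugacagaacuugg
Among 1679 mature mouse sequences in the same source, no others had this seed. Counted from base 1 at the 5′ end, miR-148a-3p and miR-148b-3p differed at 2 of 22 positions (C9U and U10C, the miR-148a base first). miR-148b-3p and miR-152-3p differed at 2 of the 21 positions they share (C10G and U20G), and miR-148a-3p and miR-152-3p at 3 (C9U, U10G and U20G). All differences lay outside the seed. Reads that carry few of these bases or an error at them could be assigned to a sister miRNA, and the authors' rule for such reads is not stated in the labels. Decimals in the counts, which may mark reads shared between entries, occurred in 6 of 18 libraries for miR-148a-3p, 7 for miR-148b-3p and 3 for miR-152-3p.

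The 5p arms follow for comparison, again with bases 2 to 8 in capitals.
miR-148a-5p: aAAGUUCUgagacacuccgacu
miR-148b-5p: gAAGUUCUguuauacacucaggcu
miR-152-5p: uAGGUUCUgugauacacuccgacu
miR-148a-5p and miR-148b-5p shared a seed, while that of miR-152-5p differed from both at 1 position (A3G). Compared base by base without gaps, the 5p arms differed more than the 3p arms. They did so at 9 of 22 positions between miR-148a-5p and miR-148b-5p and at 5 of 24 between miR-148b-5p and miR-152-5p. miR-148a-5p has 22 bases and miR-148b-5p 24, so the first count would be lower with a gap.

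The hairpins lie on different chromosomes. Mir152 is at chr11:96850393-96850465 on the plus strand, in an intron of Copz2, and Mir148b is at chr15:103285125-103285221 on the plus strand, in an intron of Copz1. Copz1 and Copz2 are paralogs that encode zeta subunits of the COPI vesicle coat, and each hairpin is on the strand of its host. Mir148a is at chr6:51269812-51269910 on the minus strand and overlaps no other gene of GENCODE M21 (GRCm38). Its nearest protein-coding gene is Nfe2l3, 162760 bases away. The next coding gene beyond the host of Mir152 is Nfe2l1, 20425 bases away, and Nfe2, of the same transcription factor family, lies 26722 bases from Mir148b. Host transcripts were not measured here.

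Levels are given in CPM, the count relative to the library total after scaling with TMM factors, as mean ± SD over 6 libraries unless stated. In these bulk kidney samples fewer cells of a type and less RNA per cell cannot be told apart. Averaged over the 18 libraries, miR-152-3p was at 2813 CPM and in 46th place among 920 entries with distinct values. miR-148b-3p was at 1098 CPM (place 70) and miR-148a-3p at 606 CPM (place 99). The other arms were scarce: miR-148b-5p was at 12.1 CPM and miR-148a-5p at 1.71 CPM. These 3p sequences are nearly equal in length, but sequencing libraries do not capture all small RNAs equally well, so the order between members is that of their read counts. It was miR-152-3p, miR-148b-3p, miR-148a-3p in 16 of 18 libraries, the exceptions being control 4 and DN 2.

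Total counts per library were 3645173 to 7239343. Control 2, DN 2 and DN 3 had stood apart in earlier results of these data, and members are also given without them where that changes a call or a direction. DN 2 differed in its cell type markers too. There, 7 leukocyte miRNAs summed to 25946 CPM, while the other 5 DN libraries held 1589 to 2360 CPM, and 6 tubule miRNAs summed to 40839 CPM, while the others held 94578 to 166081 CPM. Kidney identity was otherwise as labelled: tubule miRNAs summed to 94953 to 139844 CPM in control and 134530 to 180752 CPM in treated libraries, and the liver miRNA miR-122-5p stayed between 5.58 and 118 CPM in all 18 libraries. Of 28 marker entries tested, 0 passed by edgeR in any comparison. At an unadjusted p under 0.05 there were 5 in DN against control, 5 in treated against DN and 8 in treated against control, where 7.59%, 3.72% and 19.5% of all 619 entries had one. In the same order DESeq2 called 1, 0 and 3 of the markers (0.262%, 0% and 2.76% of all entries it tested), and limma-voom 8, 0 and 7 (14.7%, 0% and 17.1%). Over the 6 tubule miRNAs the median log2 fold change was 0.11, 0.20 and 0.52, and without DN 2 it was 0.30, −0.0011 and 0.51. Over the 7 leukocyte miRNAs it was 0.91, −1.58 and −0.093. The first pair turned without DN 2, to −0.56 and 0.35, and the 5 remaining DN libraries all had a lower leukocyte sum than any control (3176 to 4225 CPM).

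miR-152-3p, the most abundant member, had lowest, median and highest levels of 1244, 2142 and 2738 CPM in control, 1245, 3380 and 3556 CPM in DN, and 2864, 3526 and 4096 CPM in treated libraries. Every treated library lay above every control library. DN spanned both ranges, with DN 3 at 1245 and DN 2 at 2021 CPM among the controls and the other 4 libraries at 3288 to 3556 CPM, above all controls. Control itself divided into a low part (control 2, 3 and 5, at 1244 to 1587 CPM) and a high part (control 1, 4 and 6, at 2697 to 2738 CPM). Markers of several cell types moved with this split. Smooth muscle and mesangial miRNAs summed to 26428 to 29610.5 CPM in control 2, 3 and 5 and to 42797 to 58593 CPM in control 1, 4 and 6, and endothelial miRNAs to 9172 to 18219 and 20561 to 24127 CPM. DN 2 and DN 3 were also low in both, at 29386 and 22020.2 CPM for smooth muscle and mesangial and at 8007 and 8034 CPM for endothelial miRNAs. The other DN libraries held 35930 to 51653 and 19509 to 23319 CPM. In treated libraries the sums were 40644 to 59671 and 16219 to 25978 CPM. Tubule miRNAs divided the controls too, at 94953 to 104769 CPM in the low part and 106778 to 139844 CPM in the high part. They were at 40839 and 94578 CPM in DN 2 and DN 3 and at 135710 to 166081 CPM in the other DN libraries. Sums of the remaining marker lists overlapped between the low and high controls. The smooth muscle and mesangial sum rested mostly on miR-143-3p, at 33366 ± 13399 CPM over the controls. The next largest SD on that list there was that of miR-145a-5p (4931 ± 559 CPM). The endothelial list held only the arms of miR-126a. The part of these cell types in the level of miR-152-3p was not tested.

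In the fit of all 619 entries that passed the filter on low counts, the log2 fold change (log2FC) of miR-152-3p was 0.75 in treated against control (SE 0.254, 95% interval 0.22 to 1.28, 1.68-fold), at 3498 ± 430.0 against 2086 ± 708 CPM. Its adjusted p was 0.173 by edgeR's quasi-likelihood test with Benjamini-Hochberg adjustment, above the threshold of 0.05. For DN against control the log2FC was 0.45 (SE 0.254, interval −0.078 to 0.98, edgeR adjusted p = 0.684), at 2854 ± 982 CPM in DN. Treated against DN gave 0.29 (SE 0.254, interval −0.24 to 0.82, edgeR adjusted p = 0.809), which was 0.12 without DN 3. Without control 2, DN 2 and DN 3 it was 0.0030. The separation of treated from control was one of 22 such cases in this direction among the 619 entries (3.55%). No entry separated upward in DN against control (0%) or treated against DN (0%).

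miR-148b-3p, the sister hosted by Copz1, varied least. Its lowest, median and highest levels were 706, 1002 and 1122 CPM in control, 979, 1172 and 1392 CPM in DN, and 1043, 1123 and 1301 CPM in treated libraries. The coefficient of variation over the 18 libraries was 16.01%, against 32.6% for miR-152-3p and 108% for miR-148a-3p. All 3 groups overlapped, with control 2 the lowest library. The log2FC was 0.32 in DN against control (SE 0.148, interval 0.012 to 0.63, edgeR adjusted p = 0.618), at 1187 ± 181 against 950.4 ± 151.9 CPM. In treated against control it was 0.28 (SE 0.148, interval −0.024 to 0.59, edgeR adjusted p = 0.298) and in treated against DN −0.037 (SE 0.148, interval −0.35 to 0.27, edgeR adjusted p = 0.986). The last interval holds changes of up to about the size seen against control.

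miR-148a-3p, the member best known from liver, was the most uneven. In control its lowest, median and highest levels were 192, 430.5 and 1719.7 CPM, the highest being control 4 and the next 684 CPM. In DN they were 126, 354 and 2827 CPM, the highest being DN 2 and the next 453 CPM. Treated libraries ranged from 244 to 706 CPM, with a median of 443. Apart from control 4 and DN 2, the 3 groups overlapped. The means were 620.1 ± 569 CPM in control, 742 ± 1027 in DN and 455 ± 193 in treated libraries. They were 400.2 ± 205 in control without control 4 and 325 ± 121 in DN without DN 2 (n = 5 each).

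The direction of miR-148a-3p rested on these single libraries. The log2FC in DN against control was 0.26 (SE 0.637, interval −1.07 to 1.59, edgeR adjusted p = 0.948), and it was −0.90 without DN 2 and 0.95 without control 4. For treated against DN the log2FC was −0.71 (SE 0.637, interval −2.04 to 0.63, edgeR adjusted p = 0.809), and 0.48 without DN 2. Treated against control gave −0.45 (SE 0.637, interval −1.78 to 0.89, edgeR adjusted p = 0.740), and 0.20 without control 4. These intervals span changes of over 1 log2 unit in at least one direction, so the data do not show this miRNA unchanged.

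Cell type markers moved with the uneven libraries. In DN 2 the leukocyte sum was the highest of all libraries, with 7 of 7 markers in the table and 0 of them at 0 in any group. In treated 6, where that sum was 9117 CPM against 1847 to 3080 CPM in the other treated libraries, miR-148a-3p was at 415 CPM, within its group. The sum in treated 6 rested mostly on 1 marker, miR-146a-5p, at 2186 ± 2676 CPM over the treated libraries. The next largest SD among the leukocyte miRNAs there was that of miR-342-3p (403 ± 123 CPM). In control 4 the leukocyte sum, 3684 CPM, lay within the other controls (3176 to 4225 CPM). Striated muscle miRNAs there summed to 298 CPM against 76.4 to 89.5 CPM in the other controls, smooth muscle and mesangial miRNAs to 58593 against 26428 to 47724 CPM, and nerve, adrenal and islet miRNAs to 722 against 273.7 to 419 CPM. Over the controls, the largest SD among the nerve, adrenal and islet miRNAs was that of miR-124-3p (65.2 ± 128 CPM). The next was that of miR-7a-5p (209 ± 54.6 CPM), which was at 260 CPM in control 4. The higher sum of this list in control 4 may thus rest mostly on 1 marker. The same may hold for the smooth muscle and mesangial sum, where miR-143-3p varied most over the controls (33366 ± 13399 CPM). The part of these cell types in the level of miR-148a-3p was not tested.

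**Figure D1:**
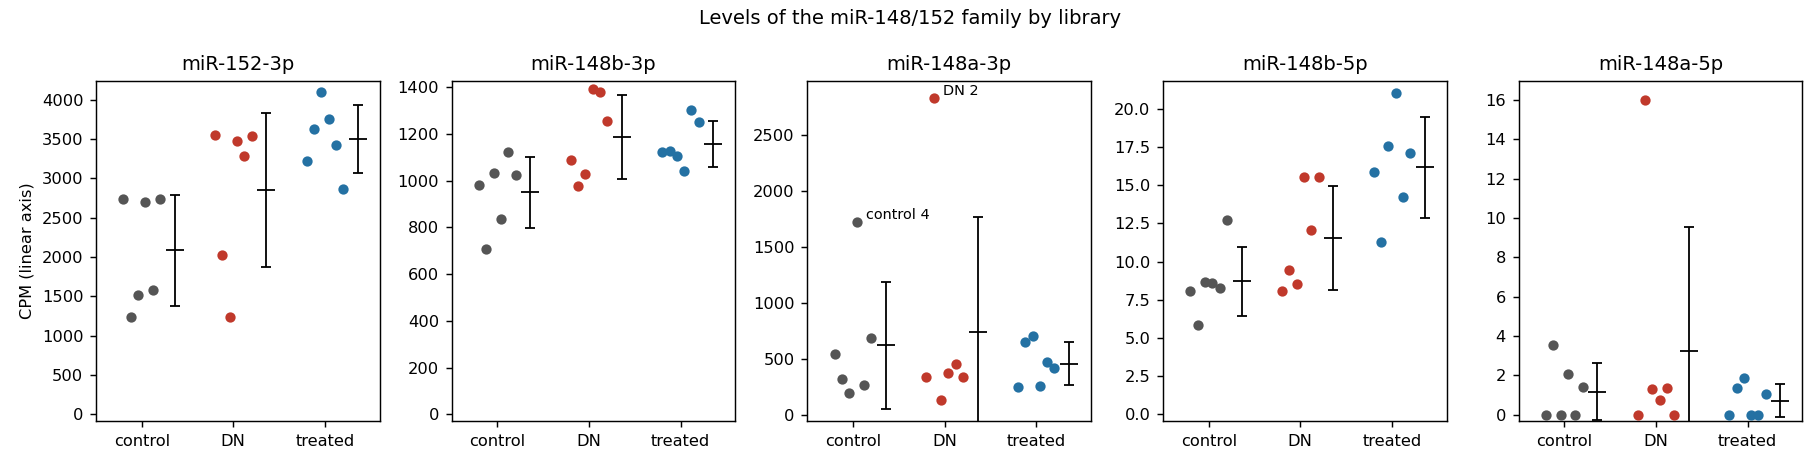
Levels in CPM (linear axes, each panel with its own scale) of the 5 family members in the 18 libraries; points are libraries, and the bar beside each group is the mean with its SD, cut off at the lower edge in the miR-148a panels. miR-152-3p of every treated library lies above every control, while the means of miR-148a-3p are pulled up by DN 2 at 2827 CPM and control 4 at 1719.7 CPM.

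The 5p arms rest on few reads. miR-148b-5p had 30 to 102 counts per library, and its lowest, median and highest levels were 5.83, 8.43 and 12.8 CPM in control, 8.06, 10.8 and 15.5 CPM in DN, and 11.3, 16.5 and 21.1 CPM in treated libraries. Treated and control overlapped in 1 library each, treated 2 at 11.3 CPM and control 6 at 12.8 CPM. For these libraries the exact 95% Poisson intervals, which cover counting error only, were 8.09 to 15.3 and 9.58 to 16.6 CPM. All 6 treated libraries lay above the median of control and above that of DN.

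For miR-148b-5p the log2FC in treated against control was 0.90 (SE 0.250, interval 0.37 to 1.42, 1.86-fold), at 16.2 ± 3.30 against 8.70 ± 2.25 CPM, with an edgeR adjusted p = 0.148. It stood 7th of 619 entries by p in that comparison, and miR-152-3p 31st. In treated against DN the log2FC was 0.49 (SE 0.249, interval −0.035 to 1.01, edgeR adjusted p = 0.800), against a DN level of 11.5 ± 3.39 CPM. DN against control gave 0.41 (SE 0.251, interval −0.12 to 0.93, edgeR adjusted p = 0.706). The differences of this arm pointed the same way in all 3 comparisons, which share groups and are not independent of each other.

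miR-148a-5p did not pass the filter of the edgeR fit. It was listed at 0 in 8 of 18 libraries and at 5 to 26 counts in 9 others, and DN 2 held 110 counts (16.01 CPM), the library where its 3p partner also peaked. Among the values of mouse entries over all libraries, 0 equal 1 and 405 equal 5, so an entry listed at 0 may stand for a few reads, and no fold is given.

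Of the 4 members tested, 0 were called in DN against control, in treated against DN or in treated against control by edgeR, and the share of all 619 entries called was 0% in each. At an unadjusted p under 0.05 there were 1, 0 and 2 members respectively, and 47, 23 and 121 of all 619 entries (7.59%, 3.72% and 19.5%). In DN against control 4 of 4 were higher, with a median log2FC of 0.36 against 0.075 over all entries. In treated against control 3 of 4 were higher (median 0.52, against −0.0035), and in treated against DN 2 of 4 (0.13, against −0.054). These counts rest in part on single libraries. Without DN 2, miR-148a-3p turned to −0.90 in DN against control and to 0.48 in treated against DN. Without control 4 it turned to 0.20 in treated against control. In addition, miR-148b-3p and miR-148b-5p are arms of the same hairpin. The tubule markers also had a median of 0.52 in treated against control, and their part in the family's values was not tested.

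Other fits called some members. For DN against control, limma-voom with sample weights called miR-152-3p (log2FC 0.72, adjusted p = 0.0145) and miR-148b-3p (0.39, 0.0185), where it called 14.7% of all entries. Without control 2, DN 2 and DN 3 the edgeR fit called miR-152-3p (0.61, adjusted p = 0.0349) and 8.02% of entries. For treated against control, miR-148b-5p and miR-152-3p were both called by limma-voom (adjusted p = 0.00950 and 0.00802, with 17.1% of entries called), by edgeR on these 2 groups alone (0.0423 each, 9.76%) and by edgeR without those 3 libraries (0.0444 and 0.0273, 7.86%). DESeq2 called miR-148b-5p alone of the members (adjusted p = 0.0342, 2.76% of entries). No fit called a member in treated against DN, and none called miR-148a-3p in any comparison.

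**Figure D2:**
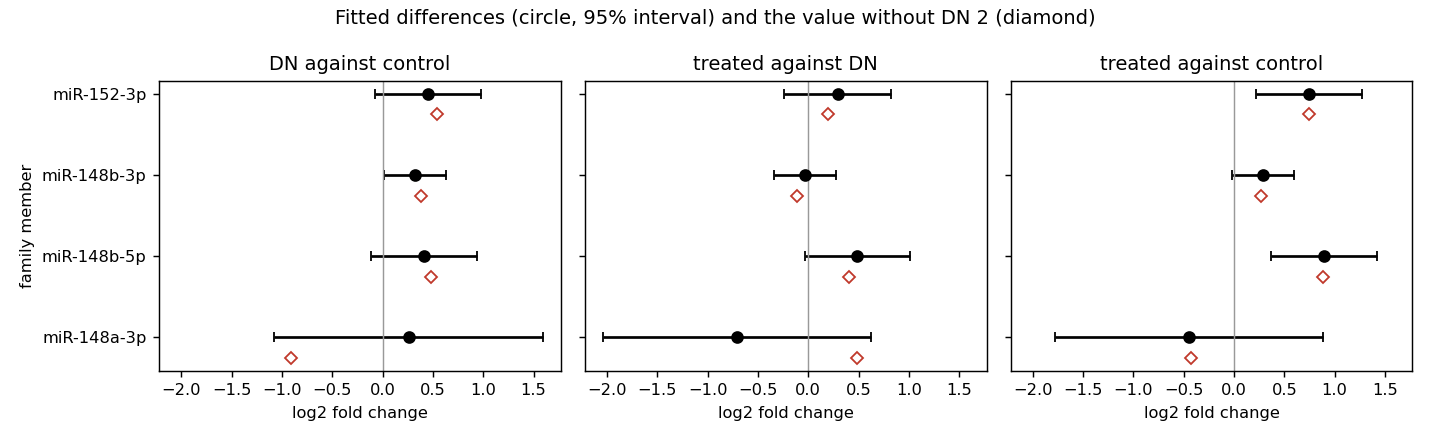
Fitted log2 fold changes of the 4 tested members in the 3 comparisons, with 95% intervals (circles and bars) and the value without DN 2 (open diamonds). miR-152-3p and miR-148b-5p lie above 0 in treated against control with and without DN 2, while miR-148a-3p changes sign in the comparisons that use DN 2.

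The make-up of the 3p arms within a library needs no scaling between libraries. miR-152-3p made up 56.8 ± 5.04% of their summed counts in control, 59.6 ± 13.96% in DN and 68.4 ± 3.86% in treated libraries. miR-148b-3p made up 28.1 ± 8.88%, 26.6 ± 8.81% and 22.9 ± 3.34%. The share of miR-148a-3p was 15.1 ± 9.18% in control, 13.8 ± 17.0% in DN and 8.73 ± 3.06% in treated libraries. It reached 48.5% in DN 2, while the 5 remaining DN libraries held 5.26% to 8.85%. In control 4 it reached 32.7%, and the remaining controls held 7.02% to 15.4%. Without these 2 libraries the mean was 6.90 ± 1.29% in DN and 11.6 ± 3.54% in control.

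Ratios between members show the same libraries. The log2 ratio of miR-148a-3p to miR-152-3p ran from −2.98 to −0.65 over the controls, from −3.41 to 0.48 over DN and from −3.90 to −2.49 over the treated libraries. Control 4 and DN 2 were also left out, after seeing their miR-148a-3p values, which enter this ratio. Without them, control lay at −2.98 to −1.96 and DN at −3.41 to −2.86. Then 4 of those 5 control libraries were above all 5 DN libraries, an order that depends on this choice. For miR-148b-3p to miR-152-3p it ran from −1.69 to −0.50 over the controls, from −1.71 to −0.28 over DN and from −1.89 to −1.20 over the treated libraries, and its highest value was that of DN 3. The sum of the 3 arms was 3656 ± 1163 CPM in control, 4783 ± 1204 in DN and 5111 ± 517 in treated libraries. DN 3 held 2399.7 CPM in all and the other DN libraries 4977 to 5827 CPM. This summed level was not tested.

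**Figure D3:**
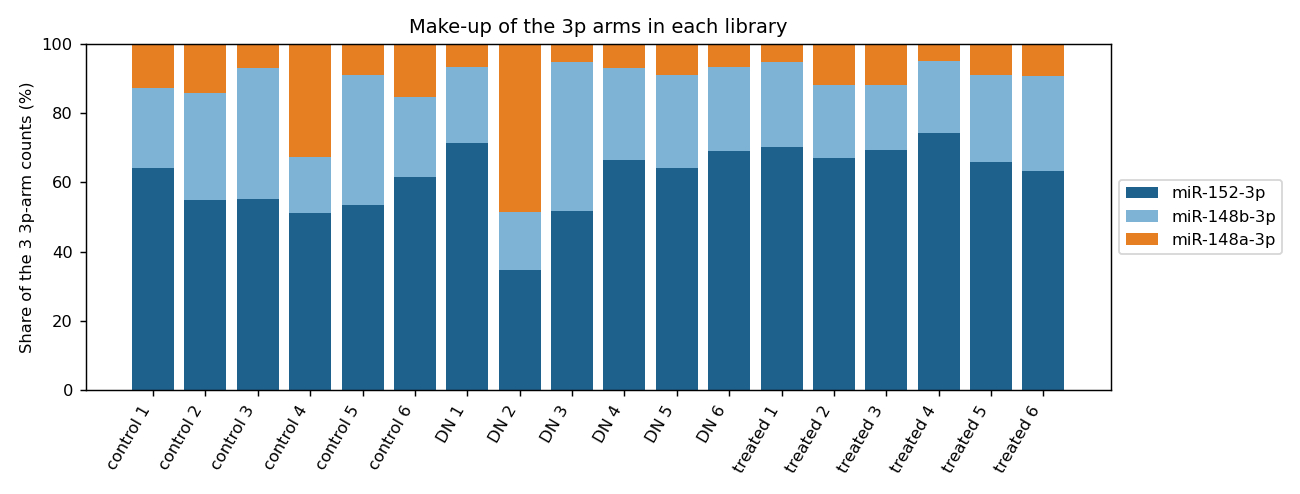
Share (%) of miR-152-3p, miR-148b-3p and miR-148a-3p in the summed counts of the 3 arms, 1 bar per library. miR-148a-3p takes 48.5% in DN 2 and 32.7% in control 4, and miR-152-3p takes over 50% in every library but DN 2.

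The ratio of arms from 1 hairpin also needs no scaling. For miR-148b there were 0.917 ± 0.187 counts of 5p per 100 of 3p in control (0.739 to 1.25), 0.960 ± 0.186 in DN (0.742 to 1.23) and 1.41 ± 0.366 in treated libraries (1.003 to 2.02). Control and DN covered the same range, and 4 of 6 treated libraries lay above both. For miR-152 the ratio was 0.671 ± 0.556 in control, 0.588 ± 0.241 in DN and 0.481 ± 0.144 in treated libraries. Control 2 held 1.78, against 0.293 to 0.610 in the other controls, whose mean was 0.450 ± 0.142 (n = 5). Control was thus the group with the highest mean with control 2 and the lowest without it. In that library miR-152-3p was lowest of the 6 and miR-152-5p, at 22.1 CPM, highest.

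miR-152-5p itself was at 11.6 ± 5.29 CPM in control, 15.03 ± 4.25 in DN and 16.8 ± 5.19 in treated libraries. Its log2FC was 0.37 in DN against control (edgeR adjusted p = 0.807), 0.16 in treated against DN (0.930) and 0.53 in treated against control (0.332). An entry under the opossum name mdo-miR-152-3p held 0 to 11 counts per library.

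**Figure D4:**
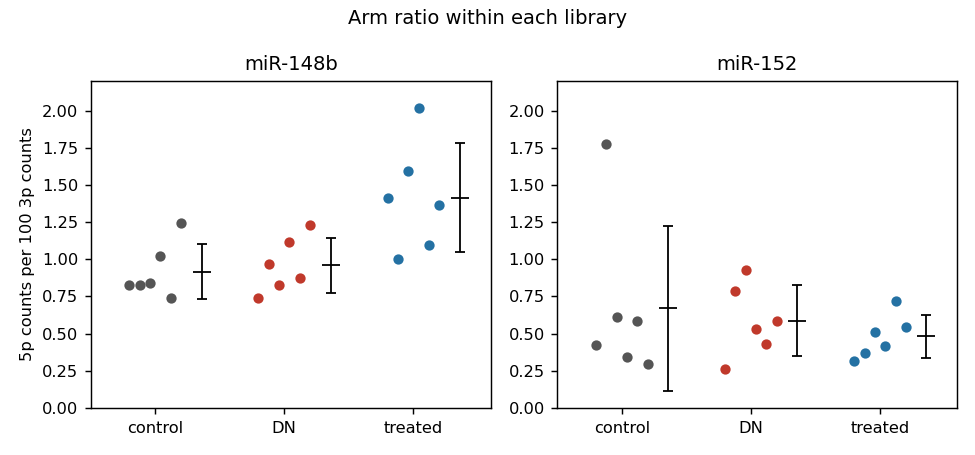
Counts of the 5p arm per 100 counts of the 3p arm for miR-148b (left) and miR-152 (right); points are libraries, and bars are the mean and SD of 6. The treated libraries of miR-148b run from 1.003 to 2.02 against 0.739 to 1.25 in control, and control 2 stands out for miR-152 at 1.78.

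The members did not follow one another closely. Over the 18 libraries, Pearson's r of log2 CPM was 0.56 between miR-148b-3p and miR-152-3p (Spearman's rho 0.56), 0.26 between miR-148a-3p and miR-152-3p (rho 0.23) and −0.19 between miR-148a-3p and miR-148b-3p (rho −0.11). After subtracting group means these were 0.39, 0.37 and −0.20. The arms of miR-148b gave an r of 0.64 (rho 0.52), and those of miR-152 one of 0.23 (rho 0.33). All points share library depth and the libraries that stand apart, and the values are descriptions with no test.

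The miRNAs most like each 3p member were taken from 321 mouse entries with a mean of at least 10 CPM, by Pearson's r of log2 CPM. For miR-152-3p the 5 highest were miR-542-3p (r 0.96, rho 0.89), miR-322-5p (0.92, 0.81), miR-30d-3p (0.92, 0.85), miR-450b-5p (0.92, 0.88) and miR-27b-3p (0.91, 0.93). miR-542-3p, miR-322-5p and miR-450b-5p are encoded together on the X chromosome. After subtracting group means r was 0.87 to 0.94 for these 5, and without control 2, DN 2 and DN 3 it was 0.85 to 0.94. The strongest opposite pattern was that of miR-324-3p (r −0.94). miR-152-3p and miR-542-3p were both lowest in control 2 and DN 3. In DN 3 miR-542-3p was at 13.1 CPM, against 107 CPM in its highest library.

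For miR-148a-3p the nearest were miR-136-3p (r 0.83, rho 0.85), miR-411-5p (0.82, 0.77), miR-379-5p (0.81, 0.77), miR-434-5p (0.81, 0.81) and miR-338-3p (0.79, 0.70). All but miR-338-3p come from the imprinted Dlk1-Dio3 region. In control 4 and DN 2, miR-379-5p was at 74.8 and 73.5 CPM, against 12.2 to 54.5 CPM in the other 16 libraries, and miR-411-5p was at 61.5 and 55.0 CPM against 6.09 to 43.9. miR-136-3p was at 36.6 CPM in control 4, its highest library, and at 22.3 CPM in DN 2, within the others (4.80 to 27.2 CPM). Without control 2, DN 2 and DN 3, r was 0.73 to 0.88 for these 5. The strongest opposite pattern was that of miR-187-5p (r −0.87), listed at 0 in DN 2.

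For miR-148b-3p the likeness was weaker: miR-802-5p (r 0.77, rho 0.65), miR-802-3p (0.73, 0.72), miR-10b-3p (0.69, 0.78), miR-7a-5p (0.68, 0.51) and miR-144-5p (0.68, 0.63). After subtracting group means r was 0.59, 0.53, 0.64, 0.48 and 0.67 in this order, and without control 2, DN 2 and DN 3 it was 0.41 to 0.61. In control 2, where miR-148b-3p was lowest, miR-802-5p was at 3.66 CPM, also its lowest.

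**Figure D5:**
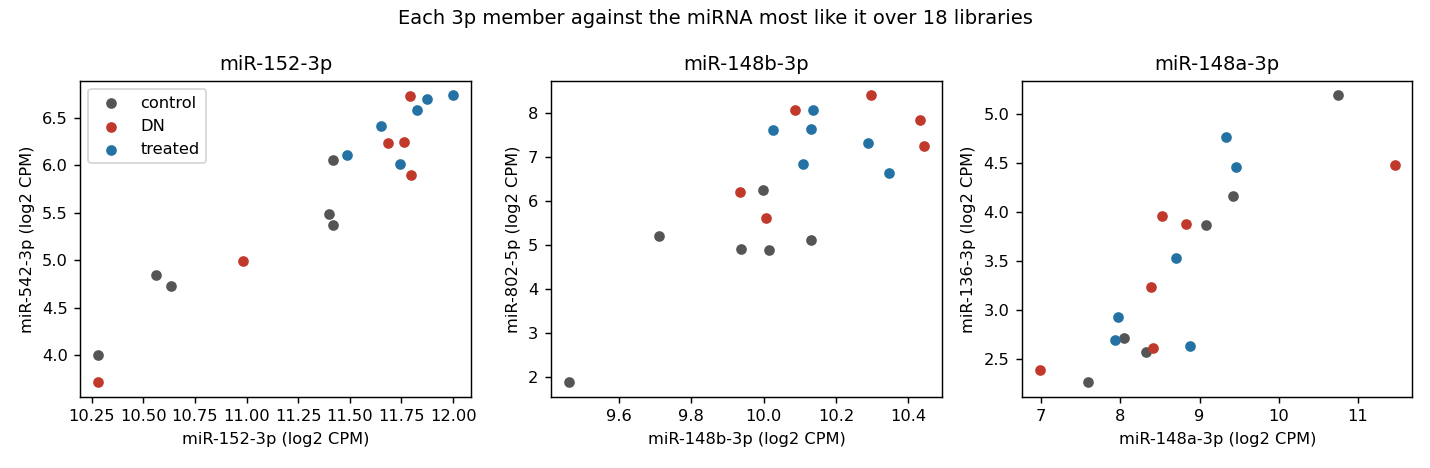
Each 3p member (x axis, log2 CPM) against the miRNA of highest Pearson's r (y axis, log2 CPM), 1 point per library, coloured by group. miR-542-3p follows miR-152-3p over the whole range (r 0.96), miR-802-5p follows miR-148b-3p with 1 control far below (r 0.77), and miR-136-3p follows miR-148a-3p (r 0.83).

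The seed letters of the family recur in other miRNAs at another position. In miR-130a-3p, miR-130b-3p and miR-301a-3p they start at base 1 instead of base 2, which is why this neighbouring family is shown, with the shared letters in capitals.
miR-130a-3p: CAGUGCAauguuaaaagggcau
miR-301a-3p: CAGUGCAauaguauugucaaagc
miR-130a-3p was at 1164 ± 246 CPM in control, 1067 ± 334 in DN and 823 ± 161 in treated libraries (log2FC −0.50 in treated against control, SE 0.210). miR-301a-3p was at 41.6 ± 20.2 CPM in control, 67.5 ± 32.5 in DN and 81.4 ± 24.8 in treated libraries (log2FC 0.97, SE 0.409). Of 6 entries on this list 3 were tested and 0 passed by edgeR in any comparison. At an unadjusted p under 0.05 there were 1, 1 and 2 in DN against control, treated against DN and treated against control, where all entries gave 7.59%, 3.72% and 19.5%. In the last comparison limma-voom called miR-130a-3p and miR-301a-3p, and 17.1% of all entries. It called 0 of the list in the others, and DESeq2 called 0 in each. The list had a median log2FC of 0.70 in DN against control, −0.37 in treated against DN and 0.12 in treated against control. The first pair turned without DN 2, to −0.21 and 0.28, and the last was 0.11.

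miRNAs with reported roles near those of the family were counted from fixed lists, in the order DN against control, treated against DN and treated against control. Of the lipid and LDL receptor miRNAs, 13 of 14 were tested, and edgeR and DESeq2 called 0 in any comparison. Under an unadjusted p of 0.05 there were 2, 3 and 1 (7.59%, 3.72% and 19.5% of all entries), and limma-voom called 1, 0 and 2 (14.7%, 0% and 17.1% of all entries). Their median log2FC was 0.29, −0.011 and 0.12, against 0.075, −0.054 and −0.0035 over all entries. Without DN 2 the list's medians were 0.092, 0.085 and 0.11. miR-27b-3p, an Abca1-targeting miRNA, was at 22521 ± 1716 CPM in treated and 15436 ± 2726 in control libraries (log2FC 0.54, SE 0.179). miR-33-5p, encoded in an intron of Srebf2, was at 42.4 ± 17.0 against 36.2 ± 21.9 CPM (log2FC 0.23, SE 0.548).

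Of the miRNAs reported to target DNA methyltransferases, 7 of 8 were tested. Of these, 0 passed by edgeR, DESeq2 or limma-voom in any comparison or had an unadjusted p under 0.05. Of all entries, edgeR called 0% in each, DESeq2 0.262%, 0% and 2.76%, and limma-voom 14.7%, 0% and 17.1%. An unadjusted p under 0.05 was held by 7.59%, 3.72% and 19.5%. The medians were −0.0073, 0.19 and 0.15, against 0.075, −0.054 and −0.0035 over all entries. Without DN 2 the medians were 0.092, 0.084 and 0.14. miR-29a-3p, which targets the de novo methyltransferases, was at 22277 ± 3241 CPM in treated and 21271 ± 1416 in control libraries (log2FC 0.067, SE 0.130).

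The Hox-locus miRNAs, from the same chromosomal neighbourhoods as Mir152 and Mir148b and their paralogs, had 9 of 9 tested and 0 called by edgeR or DESeq2. The list held 1, 0 and 5 entries with an unadjusted p under 0.05, and limma-voom called 3, 0 and 4, beside the same shares of all entries. All 9 had a log2FC above 0 in DN against control (median 0.19), 5 in treated against DN (0.032) and 6 in treated against control (0.41). Without DN 2 these were 9 (0.29), 4 (−0.19) and 6 (0.39). miR-10a-5p, from the HoxB cluster near Mir152, was at 40727 ± 7093 CPM in treated and 27910.1 ± 6083 in control libraries (log2FC 0.55, SE 0.195). miR-196a-2-3p, from the HoxC cluster near Mir148b, was at 9.16 ± 2.02 against 6.14 ± 2.17 CPM (log2FC 0.58, SE 0.271). miR-615-3p, also from the HoxC cluster, went the other way, at 248 ± 35.0 against 292 ± 105 CPM (log2FC −0.24, SE 0.252). The log2FC in treated against control was also below 0 for miR-196a-5p (−0.099, SE 0.183) and miR-196b-5p (−0.043, SE 0.159).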

How the data were processed

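Small RNA reads of 18 mouse kidney libraries were filtered by the authors with ACGT101-miR, per the labels' protocols. Trimmomatic 0.32, BWA, SAMtools and edgeR also appear in the submitters' processing notes, without settings. No source used here names a genome build or miRBase release. Estimated counts, the deposited raw values, were rounded to whole numbers. The deposited normalized columns hold a signal, the raw value times 1 factor per library, and were used only as an alternative for ratios.

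Of 1534 rows, 350 had no name and were left out (at most 0.148% of a library). filterByExpr (minimum count 10, minimum total 15) kept 619 of 1184 named entries. The fit used edgeR 4.0.16 (R 4.3.3) over all 18 libraries, with TMM factors, group as the only factor and the 2-sided quasi-likelihood test, adjusted over 619 entries at a threshold of 0.05, and checked on simulated data. SE come from the working weights and posterior dispersion. The prior count was 2 for log2 CPM.

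Members and lists were chosen with earlier results of these data known. Named outside the family were the 5 miRNAs most like each 3p member by Pearson's r and the one most unlike miR-152-3p and miR-148a-3p, picked after seeing the values. Members of 4 fixed lists (lipid and LDL receptor, DNA methyltransferase, Hox-locus and shifted-seed miRNAs) and marker miRNAs were also named, with list examples picked after their values were seen. Alternatives used RLE factors, no factors, other filters, DESeq2 1.42.0, limma-voom 3.58.1, a block, fewer groups, summed names and left-out libraries.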

Additional observations from a re-analysis of the deposited data

Results flagged for a closer look

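In groups of 6 libraries, a library was picked out where its gap to the nearest other library was over 0.625 of the group's range. Chance gives this in about 1 of 20 groups of normally distributed values. The levels, shares and ratios here need not be so distributed, so that rate may not apply to them. Of 33 sets of values examined, 9 held such a library. In DN 2, miR-148a-3p was at 2827 CPM (next 453), miR-148a-5p at 16.01 CPM (next 1.34) and the share of miR-148a-3p in the 3p arms at 48.5% (next 8.85%). In control 4, miR-148a-3p was at 1719.7 CPM (next 684) and its share at 32.7% (next 15.4%). In control 2, miR-152-5p was at 22.1 CPM (next 11.6), with 1.78 counts of 5p per 100 of 3p (next 0.610), and miR-148a had 1.10 counts of 5p per 100 of 3p (next 0.207). In DN 3 the sum of the 3p arms was lowest, at 2399.7 CPM (next 4977). Both arms of miR-148a peaked in DN 2, and the other sets picked out there and in control 4 use the same counts.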

How the results depend on the processing

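Over 29 alternatives, miR-152-3p, miR-148b-3p and miR-148b-5p kept their direction in each comparison. In treated against DN, however, the log2FC of miR-152-3p fell to 0.0030 (SE 0.159) without control 2, DN 2 and DN 3. In that comparison miR-148b-3p ran from −0.20 to −0.0086 over the alternatives. The direction of miR-148a-3p was not kept. Its log2FC in DN against control was −0.13 with limma-voom, −0.22 with the replicate block, −0.85 without control 2, DN 2 and DN 3, and −0.30 without control 4 and DN 2, an alternative added after seeing the data. Leaving out 1 library gave −0.90 to 0.95. In treated against DN it was 0.037 with limma-voom, 0.27 without the 3 libraries and 0.47 without the 2 (−0.996 to 0.48 with 1 left out), and in treated against control 0.17 without the 2 (−0.52 to 0.20). The cause was not tested. Members called in DN against control were 2 with limma-voom and 1 without the 3 libraries, in place of 0. In treated against control they were 2 with limma-voom, 2 with only the 2 groups, 2 without the 3 libraries and 1 with DESeq2. With any 1 library left out, 0 were called in each comparison. The replicate numbers do not pair the libraries: deviations of same-numbered libraries from their group means correlated at −0.33 to 0.26, and 0 members were called with the replicate block. Using library size only moved the median log2FC of all entries by −0.14 in treated against DN and −0.20 in treated against control. In the latter miR-148b-3p was then at 0.075 in place of 0.28. miR-152-3p was at 0.55 in place of 0.75, and miR-148b-5p at 0.68 in place of 0.90. Counts of 30 to 102 limit miR-148b-5p, and miR-148a-5p is too scarce to test.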
